A study of Danio rerio with 7 samples.

Results

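The meis and pbx homeobox genes were followed across 6 libraries of sox10-positive cells sorted from zebrafish embryos. Members were the entries of the deposited expression table named meis1b, meis2a, meis2b, meis3, pbx1a, pbx2, pbx3b or pbx4. Of these 8 names 7 were found, and since pbx1a has 2 entries the set holds 8 of 33735 gene entries. An entry named meis1 (ENSDARG00000012078), an older name that RefSeq lists for meis1b, was left outside the set and is given beside it. The set was selected on measured values: it was drawn up with limma results of these libraries known, in which meis2a was among the lower genes with the smallest p under progesterone. The fold changes of the members are therefore descriptions, with no test. Of the 8 entries, 5 (meis2a, meis2b, meis3, pbx2 and pbx4) had a mean of at least 1 FPKM over the libraries and entered the fit over all genes. Those 5 are not all members, and pbx3b and both pbx1a entries are given by level alone.

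The libraries came from embryos injected with a ctr9 morpholino and held in 32 µM progesterone (2 libraries, experiments 1 and 2), from embryos injected with the same morpholino and held in DMSO (2 libraries, experiments 1 and 2), and from uninjected embryos held in DMSO (2 libraries, named by 5 ng and 10 ng). Exposure lasted from 50% epiboly to the stage of 15 somites, after which sox10-positive cells were sorted and sequenced without ribosomal RNA. Morpholinos are synthetic antisense oligomers that keep a transcript from being translated or spliced, and the Ctr9 protein belongs to the PAF1 complex, which acts in transcription elongation. No uninjected progesterone library was analysed here, so progesterone was compared only among embryos labelled as injected. The labels name no strain, transgene or clutch, so the spread between libraries may be technical.

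Meis and Pbx proteins are homeodomain transcription factors of the TALE class, named for an extra loop in the homeodomain. Pbx proteins bind DNA together with Hox proteins, and Meis proteins bind Pbx, help to hold it in the nucleus and join such complexes. In zebrafish, pbx4 (the lazarus gene) and pbx2 act in segmentation of the hindbrain, meis3 acts with them on hindbrain Hox genes, and Meis2 is required for cranial neural crest derivatives in the mouse.

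The libraries were not alike. The FPKM of all genes added up to 218008 in experiment 2 of progesterone and to between 356101 and 366905 in the other 5 libraries, and 11776 and 9575 genes reached 1 FPKM with progesterone, against 13055 to 13528 in the DMSO libraries. The median of all 13155 genes tested moved by -0.58 on the log2(FPKM + 1) scale with progesterone, by -0.07 with the morpholino and by -0.67 with both. A relative change is a log2 fold change minus this median. Median-ratio scaling, which divides each library by its median ratio to the mean library, brought these medians to -0.08, 0.01 and -0.09. The sorting gene sox10 stood at 191 and 60.0 FPKM in experiments 1 and 2 of progesterone. In the DMSO libraries it lay between 125 and 160 FPKM. Of the 22 entries of a neural crest marker list, 21 reached 1 FPKM in some library. Foxd3, of that list, was below 1 FPKM in every library. Ctr9 mRNA measured 26.2 and 20.6 FPKM under progesterone, 42.2 and 36.7 FPKM in morpholino DMSO libraries, and 16.8 and 19.95 FPKM in uninjected ones. Since morpholinos can act without reducing transcript levels, these values are no check of the label.

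The highest members were pbx4 and meis3. In uninjected cells pbx4 (ENSDARG00000052150) stood at 64.9 and 78.7 FPKM and meis3 (ENSDARG00000002795) at 57.2 and 61.9 FPKM, above 94.4% to 95.7% of the genes that reached 1 FPKM in those libraries. FPKM is scaled to transcript length, so these levels can be set side by side. Pbx4 was above meis3 in 5 of the 6 libraries, and the 2 genes overlapped among the morpholino DMSO libraries. Together they made up 91.4% and 90.5% of the summed FPKM of the 8 entries under progesterone, against 83.3% to 84.6% in the 4 DMSO libraries.

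A middle group was formed by meis2a (ENSDARG00000042361), meis2b (ENSDARG00000077840) and pbx2 (ENSDARG00000019717). In uninjected cells they averaged 10.2 ± 2.41, 7.65 ± 2.38 and 4.88 ± 1.11 FPKM (SD, n = 2). The ranges of meis2a and meis2b overlapped, while pbx2 lay just below meis2b. The order of meis2a and meis2b differed within each pair of DMSO libraries. The lowest members were pbx3b (ENSDARG00000013615), at 1.201 and 0.722 FPKM in uninjected cells, and the pbx1a entries ENSDARG00000086991, at 1.102 and 0.769 FPKM, and ENSDARG00000089610, at 0.124 and 0.673 FPKM. The authors' counting could split the reads of pbx1a between its entries, so both are uncertain, and paralogous copies such as meis2a and meis2b may also share reads.

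**Figure D1:**
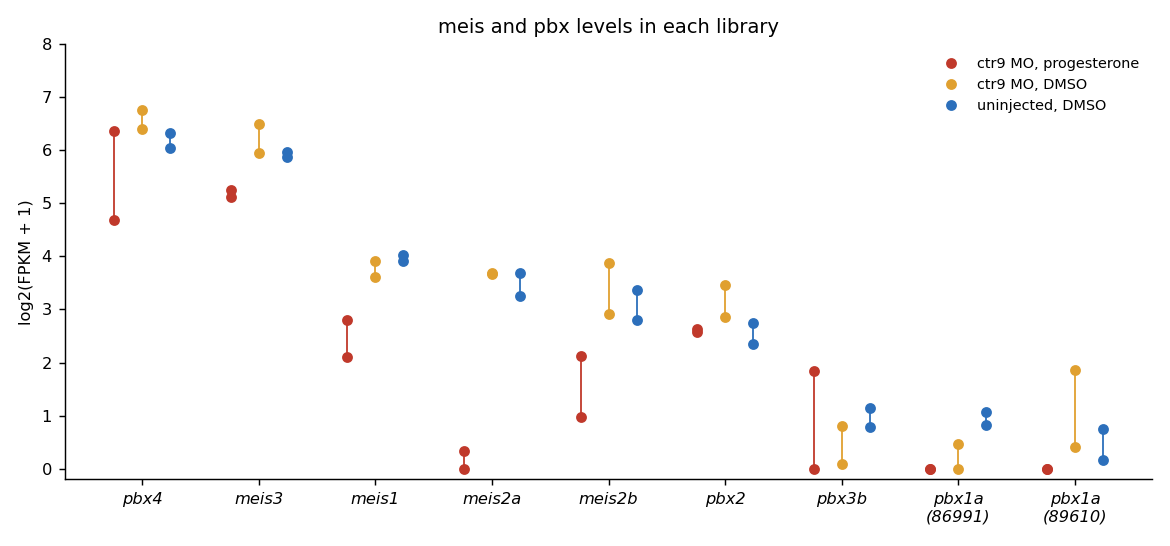
Level of each entry as log2(FPKM + 1), with 1 point per library and a line joining the 2 libraries of a group; meis1 stands outside the set of 8 entries, and the numbers under pbx1a are the last digits of its identifiers. The meis2a points with progesterone lie at the bottom of the axis (0.260 and 0 FPKM), while its 4 DMSO libraries lie between 8.50 and 11.9 FPKM.

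The first comparison sets progesterone against DMSO, both after the ctr9 morpholino, and asks how the hormone changes these cells when Ctr9 is targeted. Meis2a was listed at 0.260 and 0 FPKM with progesterone, against 11.8 and 11.7 FPKM in DMSO. Meis2b stood at 3.38 and 0.956 FPKM with progesterone, against 13.8 and 6.54 FPKM in DMSO. Both genes were below both DMSO libraries in each progesterone library, and the meis2a values were the further apart. The log2 fold change was -3.51 ± 0.37 for meis2a and -1.85 ± 0.56 for meis2b (SE from limma, n = 2 against 2). Relative to the median of all genes these came to -2.93 and -1.27.

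The size for meis2a depends on the pseudocount, since its progesterone values are near 0: it was -5.97 with a pseudocount of 0.1 and -1.71 with 5. It was the 23rd lowest log2 fold change of the 13155 genes tested, and that of meis2b the 687th lowest. Without the progesterone library of experiment 1, meis2a came to -3.67, and without that of experiment 2 to -3.34. With median-ratio scaling the values were -3.28 ± 0.36 for meis2a and -1.38 ± 0.45 for meis2b, and the scaled levels of both genes still did not overlap between the groups.

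A 0 in this table need not mean that no fragment was present, so meis2a was set beside genes of a like level. In all 4 DMSO libraries 2773 genes lay between 5 and 20 FPKM, with medians of 7.69 and 4.60 FPKM in the progesterone libraries of experiments 1 and 2. Of these, 10 genes (0.361%) were listed at 0 in experiment 1 and 64 (2.31%) in experiment 2. Only 4 (0.144%) were as low as meis2a in both, namely meis2a itself and 3 genes listed at 0 in both, anapc16, cox6c and atp6v1f. Anapc16 encodes an anaphase-promoting complex subunit, cox6c a subunit of cytochrome c oxidase and atp6v1f a subunit of the vacuolar proton pump. These 3 genes were singled out after their values were seen. Meis2a was itself known to be low with progesterone when the set was drawn up. Its place among the 2773 genes is thus a description and no support. The fragments behind a value are not in the table. Depths were estimated from the most common ratio of low values to those of the 5 ng library. This takes genes at that ratio to hold equal fragment numbers in both libraries, which was not tested. The depths lay roughly between 1.05 and 1.47 times that of the 5 ng library. The progesterone libraries came to 1.24 and 1.05. For these the most common ratio to the 5 ng library held only 34 of 1688 and 27 of 1310 low genes, so their depths are uncertain.

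**Figure D2:**
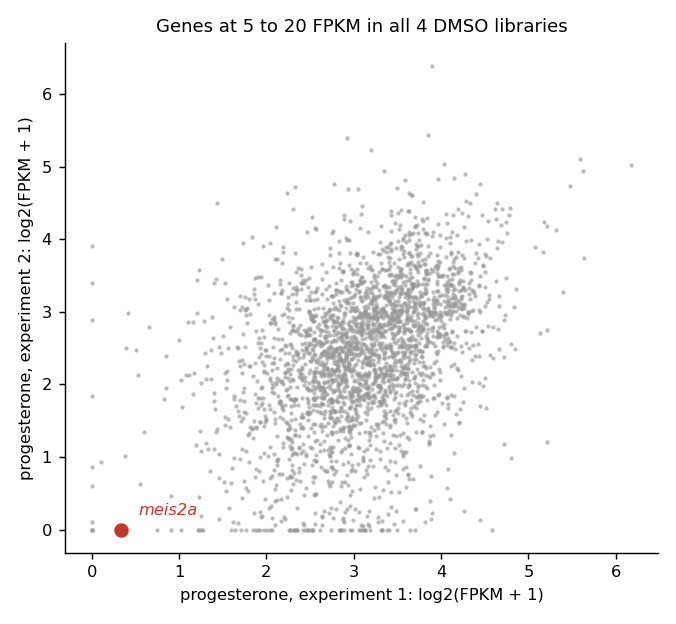
Each point is 1 of the 2773 genes that lay between 5 and 20 FPKM in all 4 DMSO libraries, placed by its log2(FPKM + 1) in the progesterone library of experiment 1 (horizontal axis) and of experiment 2 (vertical axis). Meis2a, in red, lies near the corner where both values are 0; 3 other genes lie at or below it on both axes.

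The remaining members tested had log2 fold changes nearer to the median of all genes. Meis3 stood at 37.0 and 33.8 FPKM with progesterone, against 88.9 and 60.8 FPKM in DMSO, a log2 fold change of -1.04 ± 0.30 and a relative change of -0.45. Pbx4 stood at 81.6 and 24.9 FPKM with progesterone, against 107 and 83.5 FPKM in DMSO, a log2 fold change of -1.05 ± 0.55. Experiment 1 of progesterone lay just below the lower DMSO library and experiment 2 far below it: the pbx4 log2 fold change was -1.88 without experiment 1 of progesterone and -0.21 without experiment 2. Pbx2 stood at 4.96 and 5.19 FPKM with progesterone, against 9.96 and 6.22 FPKM in DMSO, a relative change of 0.03. All 3 genes were below both DMSO libraries as deposited, and all 3 overlapped them after median-ratio scaling, with log2 fold changes of -0.38 for meis3, -0.39 for pbx4 and 0.04 for pbx2.

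Taking the 5 members together, 5 of 5 were below both DMSO libraries in both progesterone libraries, where 44.5% of all genes tested were. With median-ratio scaling it was 2 of 5, against 24.3% of all genes. At a limma adjusted p of at most 0.05, 0 of 5 were called and 0.0% of all genes were. At an unadjusted p under 0.05, 3 of 5 members and 19.8% of all genes were lower, and 0 of 5 and 1.88% higher. After scaling these were 2 of 5 and 9.49% lower, and 0 of 5 and 7.45% higher. Above both DMSO libraries lay 0 of 5 members, where 6.86% of all genes did, and 0 of 5 after scaling, where 20.1% did. Without the progesterone library of experiment 1, which leaves 1 library assumed to vary like the other groups, limma called 4266 genes (32.2% of those tested), among them 4 of 5 members (all but pbx2). Without that of experiment 2 it called 24 genes (0.178%) and 0 of 6 members, pbx3b having passed the filter there. Because this comparison entered the choice of genes, nothing is read from these counts. The median log2 fold change of the 5 was -1.05, against -0.58 over all genes. In bulk samples, fewer cells of a type and less RNA per cell cannot be told apart.

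The low members were not in the fit. Pbx3b stood at 2.61 and 0 FPKM with progesterone, against 0.749 and 0.0696 FPKM in DMSO. Its highest and lowest values of all 6 libraries were thus those of the 2 progesterone libraries. Both pbx1a entries were listed at 0 in both progesterone libraries, against 0.375 and 0 FPKM for ENSDARG00000086991 and 0.321 and 2.63 FPKM for ENSDARG00000089610 in DMSO. The entry named meis1, outside the set, stood at 5.98 and 3.33 FPKM with progesterone, against 14.1 and 11.2 FPKM in DMSO, a log2 fold change of -1.31 ± 0.37 and a relative change of -0.72. Its groups did not overlap either as deposited or after scaling.

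**Figure D3:**
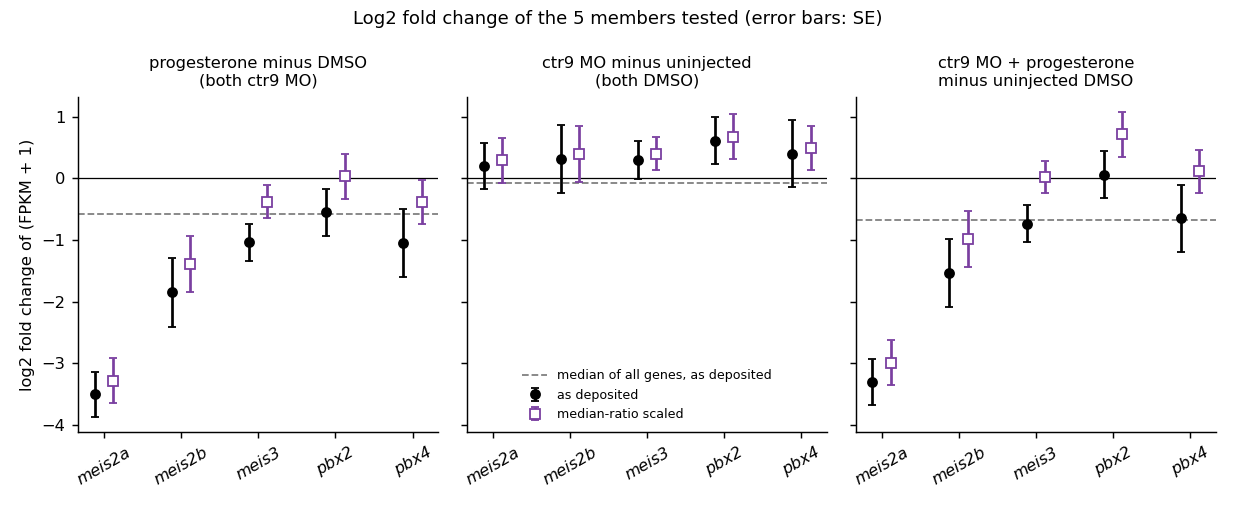
Log2 fold change of log2(FPKM + 1) with its standard error for the 5 members tested, in 3 comparisons, from FPKM as deposited (filled circles) and after median-ratio scaling (open squares); dashed lines mark the median of all genes as deposited. With progesterone meis2a (-3.51) and meis2b (-1.85) lie below the dashed line, while meis3, pbx2 and pbx4 lie within 0.47 of it.

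The second comparison, of embryos labelled ctr9 morpholino with uninjected embryos, both in DMSO, addresses what injection of the morpholino does to sox10-positive cells. Pbx2 stood at 9.96 and 6.22 FPKM with the morpholino, against 4.096 and 5.67 FPKM in uninjected cells, with a log2 fold change of 0.61 ± 0.38. Pbx4 stood at 107 and 83.5 FPKM with the morpholino, against 64.9 and 78.7 FPKM, with a log2 fold change of 0.40 ± 0.55. These 2 genes did not overlap between the groups and were higher with the morpholino, as were 16.5% of all genes tested. After median-ratio scaling meis3 joined them, giving 3 of 5, against 22.8% of all genes. Below both uninjected libraries lay 0 of 5 members on either scale, against 26.1% of all genes as deposited and 22.1% after scaling.

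The other 3 members overlapped. Meis3 stood at 88.9 and 60.8 FPKM with the morpholino, against 57.2 and 61.9 FPKM in uninjected cells (0.30 ± 0.30). Meis2b stood at 13.8 and 6.54 FPKM with the morpholino, against 5.97 and 9.33 FPKM (0.31 ± 0.56), and meis2a at 11.8 and 11.7 FPKM, against 11.9 and 8.50 FPKM (0.21 ± 0.37). The sign turned for meis2b without the morpholino library of experiment 1 (-0.17) and for meis2a without the 10 ng uninjected library (-0.02). All 5 log2 fold changes were positive and smaller than 2 standard errors. The entry named meis1, outside the set, had a negative log2 fold change (-0.20 ± 0.37), at 14.1 and 11.2 FPKM against 14.0 and 15.3 FPKM. Its groups overlapped as deposited, and after median-ratio scaling it was below both uninjected libraries. At a limma adjusted p of at most 0.05, 0 of 5 were called, where 0.0152% of all genes were. At an unadjusted p under 0.05, 0 of 5 were higher and 0 lower, where 1.45% and 2.67% of all genes were. Among the low members, pbx3b stood at 0.749 and 0.0696 FPKM with the morpholino, against 1.201 and 0.722 FPKM in uninjected cells. The pbx1a entries differed in direction: ENSDARG00000089610 stood at 0.321 and 2.63 FPKM with the morpholino, against 0.124 and 0.673 FPKM, and ENSDARG00000086991 at 0.375 and 0 FPKM, against 1.102 and 0.769 FPKM.

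The third comparison, of embryos labelled ctr9 morpholino in progesterone with uninjected embryos in DMSO, gives the joint difference and shares libraries with both others. Meis2a, at 0.260 and 0 FPKM, stood against 11.9 and 8.50 FPKM in uninjected cells (log2 fold change -3.30 ± 0.37). Meis2b, at 3.38 and 0.956 FPKM, stood against 5.97 and 9.33 FPKM (-1.54 ± 0.56). Meis3, at 37.0 and 33.8 FPKM, stood against 57.2 and 61.9 FPKM (-0.74 ± 0.30). These 3 genes were below both uninjected libraries, as were 53.0% of all genes tested. The entry named meis1, outside the set, stood at 5.98 and 3.33 FPKM, against 14.0 and 15.3 FPKM (-1.51 ± 0.37). It was below both uninjected libraries as deposited and after median-ratio scaling.

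After median-ratio scaling meis3 stood at 39.8 and 57.9 scaled FPKM, against 47.4 and 46.9 in uninjected cells, and the groups overlapped (log2 fold change 0.03). The scaled log2 fold change was -2.99 for meis2a and -0.98 for meis2b, and these 2 of 5 stayed below both uninjected libraries, against 27.0% of all genes. Pbx2, at 4.96 and 5.19 FPKM against 4.096 and 5.67 FPKM, had a log2 fold change of 0.06 ± 0.38 as deposited and 0.72 ± 0.36 after scaling, where its progesterone libraries were both the higher. That made 1 of 5 above both uninjected libraries, against 21.4% of all genes; as deposited it was 0 of 5, against 5.94%. Pbx4, at 81.6 and 24.9 FPKM against 64.9 and 78.7 FPKM, had a log2 fold change of -0.65 ± 0.55, of -1.48 without experiment 1 of progesterone and of 0.19 without experiment 2. By limma 0 of 5 members were called at an adjusted p of at most 0.05, where 0.0152% of all genes were. At an unadjusted p under 0.05, 3 of 5 were lower, where 23.0% of all genes were, and 0 of 5 higher, where 1.77% were. After scaling 1 of 5 was lower, where 8.76% of all genes were, and 0 of 5 higher, where 7.43% were. The progesterone libraries of this comparison entered the choice of genes. Nothing is thus read from its counts, with or without a library left out. Without experiment 1 of progesterone limma called 4552 genes (34.4%), meis2a, meis2b and pbx4 among them, and without experiment 2 it called 62 (0.461%), meis2a among them.

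The 8 entries summed to 129.8 and 64.8 FPKM with progesterone, to 233 and 171.5 FPKM in morpholino DMSO libraries and to 146 and 166 FPKM in uninjected ones. After median-ratio scaling the sums were 139.9 and 111 with progesterone, 186 and 156 in morpholino DMSO libraries, and 121 and 126 in uninjected cells. Meis2a made up 0.200% and 0% of the family with progesterone, 5.07% and 6.84% in morpholino DMSO libraries and 8.13% and 5.11% in uninjected ones. Pbx2 made up 3.82% and 8.01% with progesterone, 4.28% and 3.63% in morpholino DMSO libraries and 2.80% and 3.41% in uninjected cells. The ratio of meis3 to pbx4 was 0.453 and 1.36 in the progesterone libraries and between 0.728 and 0.881 in the 4 DMSO libraries, so the 2 progesterone libraries lay on either side of all others.

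**Figure D4:**
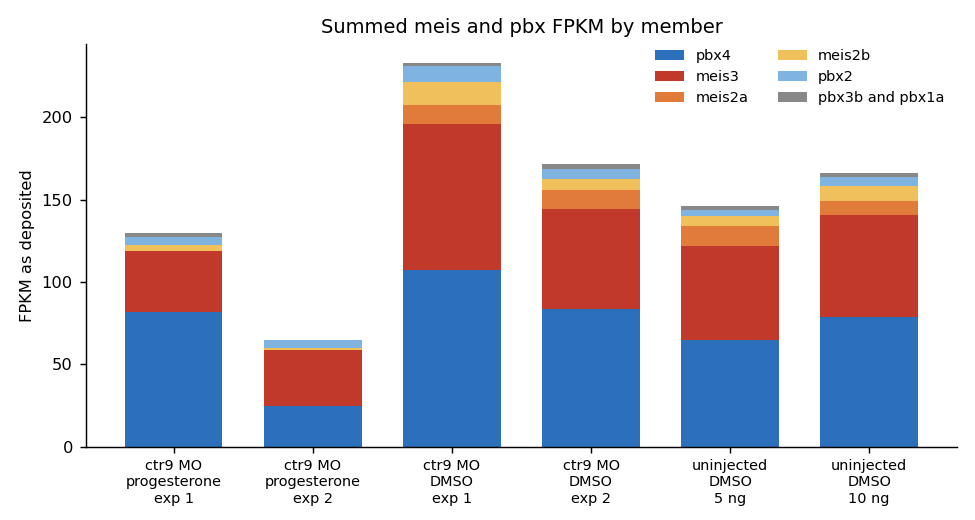
Summed FPKM of the 8 entries in each library, as deposited, stacked by member from pbx4 at the bottom. The orange band of meis2a (8.50 to 11.9 FPKM in the DMSO libraries) is not visible in the progesterone libraries, where the sums are 129.8 and 64.8 FPKM.

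Among the members tested, the paired profiles of meis2a and meis2b over the 6 libraries had a Pearson r of 0.86 on log2(FPKM + 1), and 0.82 after median-ratio scaling. Meis2a and meis3 had 0.91, but 0.31 after scaling, and meis2a and pbx2 had 0.34, but -0.44 after scaling. The libraries share their differences in summed FPKM, so these values describe the deposited scale as well as the genes. Of 5474 named genes with a mean of at least 5 FPKM, those most like meis2a were polb, a DNA repair polymerase, psmc5, a proteasome subunit, and spop, an adaptor of a ubiquitin ligase (r = 0.997, 0.996 and 0.993). Polb stood at 2.58 and 1.65 FPKM with progesterone, at 13.3 and 13.5 FPKM in morpholino DMSO libraries and at 13.03 and 11.7 FPKM in uninjected cells. Most like meis2b were mtfr1l, znf646p and huwe1 (r = 0.995 to 0.997), like meis3 larp7 and cul1b (r = 0.995 and 0.994), like pbx2 phf14 and stom (r = 0.973 and 0.971), and like pbx4 p4hb and mplkip (r = 0.998 and 0.997). These genes were picked as the highest of 5474 values over 6 libraries on the deposited scale. Their likeness was not computed after scaling, so nothing is read from it.

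Other genes of the TALE class were taken from a list of 20 names, which matched 21 entries, 12 of them tested. With progesterone against morpholino DMSO, limma called 0 higher and 0 lower (0 and 3 at an unadjusted p under 0.05, where 1.88% and 19.8% of all genes were). After median-ratio scaling 1 was higher and 2 were lower at that p, where 7.45% and 9.49% of all genes were. As deposited, their median log2 fold change was -0.55, against -0.58 over all genes. Meis1a (named meis4.1a in the table) stood at 1.66 and 0 FPKM with progesterone, against 5.65 and 5.15 FPKM (-1.97 ± 0.55, limma adjusted p = 0.156). Pknox2, of the Prep genes whose proteins also bind Pbx, stood at 5.49 and 3.71 FPKM, against 3.35 and 2.23 FPKM (0.56 ± 0.43, limma adjusted p = 0.446). With the morpholino against uninjected cells in DMSO, pknox2 stood at 3.35 and 2.23 FPKM against 12.2 and 6.83 FPKM (-1.44 ± 0.43), and the Iroquois gene irx7 at 19.7 and 20.5 FPKM against 8.21 and 8.16 FPKM (a relative change of 1.27); both had a limma adjusted p of 1. In that comparison 0 of 12 were called. At an unadjusted p under 0.05, 1 was higher and 1 lower, where 1.45% and 2.67% of all genes were. With the morpholino and progesterone against uninjected cells, 0 of 12 were called either way. As deposited, 0 of 12 were higher or lower there at an unadjusted p under 0.05, where 1.77% and 23.0% of all genes were. After median-ratio scaling 2 were higher and 0 lower, where 7.43% and 8.76% of all genes were. Pknox1.1 has 2 entries, so its reads may be split between them. Leaving out experiment 1 of progesterone, limma called 2 of the 11 then tested in the comparison with morpholino DMSO, where it called 32.2% of all genes.

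Hox genes, whose proteins bind DNA with Pbx and Meis, were mostly low. Of paralogue groups 1 to 4, 11 of 13 entries were tested; 7 of 11 were below both morpholino DMSO libraries with progesterone and 0 above, where 44.5% and 6.86% of all genes were. Hoxb1b, of the presumptive hindbrain, was listed at 0 and 0 FPKM with progesterone, against 5.23 and 5.19 FPKM in morpholino DMSO (-2.63 ± 0.38, limma adjusted p = 0.141). Of groups 5 to 13, 11 of 36 entries were tested, and 10 of 11 were below both. A low Hox gene at or near 0 with progesterone passed the filter only through its DMSO libraries. The counts and medians of both Hox lists are thus partly set by the filter. Hoxc6b was listed at 0 in both progesterone libraries, against 5.03 and 1.23 FPKM (-1.87 ± 0.57, limma adjusted p = 0.166). After median-ratio scaling 6 of 11 and 9 of 11 were below both, where 24.3% of all genes were. The median log2 fold changes were -1.38 and -1.49, and -1.24 and -1.22 after scaling. Limma called 0 genes of either list (5 and 8 lower at an unadjusted p under 0.05, where 19.8% of all genes were). With the morpholino against uninjected cells in DMSO, their medians were 0.26 and 0.32, with 0 called and 0 at an unadjusted p under 0.05. Over all genes 0.0152% were called there, and at that p 1.45% were higher and 2.67% lower. With both treatments against uninjected cells the medians were -1.34 and -1.14, with 0 called. There 4 and 4 were lower at an unadjusted p under 0.05, where 23.0% of all genes were. Without experiment 1 of progesterone, limma called 5 of 11 and 1 of 11 in the comparison with morpholino DMSO, and 32.2% of all genes.

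Hindbrain patterning and retinoic acid genes, which set the domains in which Meis, Pbx and Hox genes act, had 22 of 36 entries tested. With progesterone their median log2 fold change was -0.31, against -0.58 over all genes. As deposited, 9 of 22 were below both morpholino DMSO libraries and 0 above, near the 44.5% and 6.86% of all genes. After median-ratio scaling the median was 0.16, against -0.08 over all genes. Then 4 were below both and 5 above, where 24.3% and 20.1% of all genes were. Epha4a, an Eph receptor gene of the hindbrain segments, stood at 11.3 and 19.96 FPKM with progesterone, against 12.4 and 14.8 FPKM (0.14 ± 0.40, limma adjusted p = 0.852). Crabp2a (ENSDARG00000040923), a retinoic acid binding protein gene with 2 entries, stood at 0.501 and 0.219 FPKM, against 2.88 and 2.56 FPKM (-1.46 ± 0.40, limma adjusted p = 0.156). Of 11 genes reported in vertebrates as targets of Meis or Pbx, 6 were tested. Hoxb2a stood at 1.93 and 0.0447 FPKM with progesterone, against 4.46 and 4.30 FPKM in morpholino DMSO (-1.62 ± 0.55, limma adjusted p = 0.185). Mycn stood at 87.8 and 80.8 FPKM, against 102 and 93.6 FPKM (-0.22 ± 0.25, limma adjusted p = 0.617). Limma called 0 genes of these 2 lists in each of the 3 comparisons; at an unadjusted p under 0.05 with progesterone, 2 of 22 and 1 of 6 were lower and 0 higher. Over all genes 19.8% were lower and 1.88% higher with progesterone. After scaling 1 of 22 and 1 of 6 were lower, and 1 of 22 and 0 of 6 higher. Over all genes 9.49% and 7.45% were. For the morpholino 0 of each list were lower or higher at that p as deposited, where 2.67% and 1.45% of all genes were. After scaling 1 of 22 was lower, where 314 of the 13155 genes tested were. For both treatments 4 of 22 and 3 of 6 were lower and 0 higher as deposited, where 23.0% and 1.77% of all genes were. After scaling 2 of 22 and 1 of 6 were lower, where 8.76% of all genes were. Then 3 of 22 and 0 of 6 were higher, where 7.43% of all genes were. Without experiment 1 of progesterone, 6 of 22 and 2 of 6 were called in the comparison with morpholino DMSO, near the 32.2% of all genes.

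Neural tissue also expresses meis and pbx genes, and most neural markers tested lay below the morpholino DMSO libraries with progesterone. The 27 neural entries summed to 76.2 and 71.0 FPKM with progesterone, to 219 and 191 FPKM with the morpholino in DMSO and to 131 and 157 FPKM in uninjected cells. Scaled, the sums were 82.2 and 122 with progesterone, 175 and 173 in morpholino DMSO libraries and 109 and 119 in uninjected ones, so experiment 2 of progesterone was then above both uninjected libraries. Of 18 tested, 16 were below both morpholino DMSO libraries with progesterone (14 after scaling), where 44.5% of all genes were (24.3% after scaling). Limma called 0 of them; at an unadjusted p under 0.05, 13 were lower and 0 higher, where 19.8% and 1.88% of all genes were. It called 10 of 18 without experiment 1 of progesterone, and 32.2% of all genes. Elavl3, a neuronal RNA-binding protein gene, stood at 7.11 and 4.27 FPKM with progesterone, against 38.0 and 31.3 FPKM in morpholino DMSO. At 0 were 10 and 11 neural entries with progesterone and 1 and 3 with the morpholino in DMSO. Elavl4 was listed at 0 and 0 FPKM with progesterone, against 1.42 and 1.67 FPKM in morpholino DMSO. Such a low gene passed the filter only through its DMSO libraries. The neural counts are thus partly set by the filter. Against uninjected cells, the morpholino DMSO libraries had 9 of 18 neural genes above both and 3 below both, where 16.5% and 26.1% of all genes were. Limma called 0 there (2 higher and 0 lower at an unadjusted p under 0.05, where 1.45% and 2.67% of all genes were). With both treatments it called 0 (0 higher and 11 lower, where 1.77% and 23.0% of all genes were). After scaling 2 were higher and 6 lower at that unadjusted p, where 7.43% and 8.76% of all genes were. The part of neural cells in the meis2a, meis2b and Hox values was not tested.

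For markers of the sorted cells the direction depended on the scale. The 22 neural crest entries summed to 1495 and 561 FPKM with progesterone, to 1044 and 840 FPKM with the morpholino in DMSO and to 1169 and 1302 FPKM in uninjected cells. Scaled, they summed to 1611 and 961 with progesterone, to 835 and 763 in morpholino DMSO libraries and to 969 and 986 in uninjected ones. Of 20 tested, 4 were below both morpholino DMSO libraries with progesterone and 0 above as deposited, where 44.5% and 6.86% of all genes were. After scaling 1 was below and 7 above, where 24.3% and 20.1% of all genes were. At an unadjusted p under 0.05, 1 was lower and 0 higher as deposited, where 19.8% and 1.88% of all genes were. After scaling 0 were lower and 3 higher, where 9.49% and 7.45% of all genes were.

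The 12 otic entries summed to 41.0 and 24.3 FPKM with progesterone and to 48.2 and 36.0 FPKM with the morpholino in DMSO. In uninjected cells they summed to 79.4 and 78.1 FPKM. Scaled, the sums were 44.2 and 41.6 with progesterone, 38.5 and 32.7 in morpholino DMSO libraries and 65.9 and 59.2 in uninjected ones. Both progesterone libraries were then above both morpholino DMSO libraries. Of 7 tested, 4 were below both morpholino DMSO libraries with progesterone and 1 above, where 44.5% and 6.86% of all genes were. After scaling it was 2 and 2, against 24.3% and 20.1% of all genes. Stm, which encodes a protein of the otolith matrix, measured 0.881 and 0.380 FPKM with progesterone. In morpholino DMSO it measured 7.28 and 8.01 FPKM (-2.42 ± 0.37, limma adjusted p = 0.141). Oc90, of the same list, went the other way, at 16.9 and 12.7 FPKM against 7.12 and 5.02 FPKM (1.16 ± 0.34, limma adjusted p = 0.162). At an unadjusted p under 0.05, 2 otic genes were lower and 1 higher on either scale. Over all genes 19.8% and 1.88% were as deposited, and 9.49% and 7.45% after scaling. Limma called 0 neural crest and 0 otic genes in each comparison. For the morpholino 2 and 2 were lower as deposited at an unadjusted p under 0.05, where 2.67% of all genes were. For both treatments 2 and 4 were lower, where 23.0% of all genes were. As deposited, 0 were higher in these comparisons, where 1.45% and 1.77% of all genes were. After scaling, 4 and 1 were lower for the morpholino and 1 and 0 higher. Of the 13155 genes tested 314 and 238 were. For both treatments 2 and 2 were then lower and 3 and 0 higher, where 8.76% and 7.43% of all genes were. Without experiment 1 of progesterone, 5 of 20 and 2 of 7 were called in the comparison with morpholino DMSO, and 32.2% of all genes.

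Markers of further cell types were also measured. The 16 epidermal entries summed to 83.5 and 86.5 FPKM with progesterone and to 119.8 and 187.5 FPKM with the morpholino in DMSO. In uninjected cells they summed to 157 and 164 FPKM. Scaled, the epidermal sums were 89.9 and 148 with progesterone, 95.8 and 170 in morpholino DMSO libraries and 130 and 125 in uninjected ones. Muscle and somite, notochord, and blood and endothelial entries summed to between 3.69 and 69.1 FPKM in every library. Endoderm, yolk and hatching gland entries summed to 9.06 and 5.36 FPKM with progesterone, against 92.4 and 76.0 FPKM in morpholino DMSO libraries. In uninjected ones they summed to 37.4 and 36.6 FPKM. Most of these sums came from 1 gene, apoeb, and 5 of the 12 entries reached 1 FPKM in some library. Apoeb stood at 8.36 and 2.98 FPKM with progesterone, 80.2 and 66.7 FPKM in morpholino DMSO and 28.9 and 27.9 FPKM in uninjected cells. Tested were 7 epidermal genes, 4 of endoderm, yolk and hatching gland and 2 of each other list. Limma called 0 genes of these 5 lists in each comparison. At an unadjusted p under 0.05 with progesterone, 1 was higher and 9 were lower, where 1.88% and 19.8% of all genes were. Of the lower genes 4 were epidermal, and after scaling 0 epidermal genes were lower with progesterone. Of the epidermal genes, 2 of 7 were called there without experiment 1 of progesterone, and 32.2% of all genes. Their part in the member values was not tested.

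**Figure D5:**
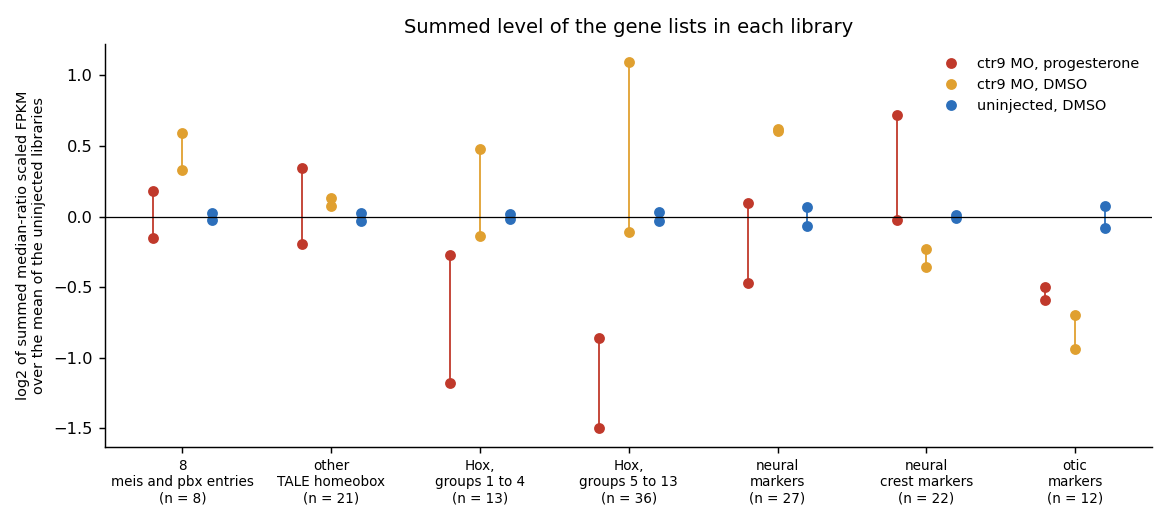
Log2 of the summed, median-ratio scaled FPKM of each list over the mean of the uninjected libraries, with 1 point per library; a line joins the 2 libraries of a group and n is the number of entries. The Hox lists and the otic list lie below 0 with progesterone, and the otic list also does with the morpholino in DMSO. The 8 meis and pbx entries, of which pbx4 and meis3 make up most, lie on either side of 0 with progesterone.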

How the data were processed

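Per the labels' protocols, RNA of sorted sox10-positive cells was depleted of ribosomal RNA and sequenced as paired reads. The authors deposited 1 table of FPKM with 6 library columns; the unit comes from a stray header line at its foot, which was removed (1 row, leaving 33827 entries with 92 ERCC spike-ins). Per the submitters' processing notes, cutadapt, TopHat2 2.0.11 and Cufflinks 2.2.1 were used and the builds Zv9 and hg19 are named; the sources used here do not give the annotation. Columns were assigned by name, the uninjected ones without an experiment number.

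Limma 3.58.1 in R 4.3.3 (lmFit, eBayes with a trend) was run on log2(FPKM + 1) for the 13155 genes whose FPKM averaged 1 or more; 3 group means left 3 residual degrees of freedom, p-values were adjusted by Benjamini-Hochberg, and the code was tested on simulated data. This scale understates the change of low genes. ERCC spike-ins were not removed before the fit or the scaling, so any that averaged 1 FPKM or more are counted among the genes. A low gene near 0 in some libraries passes the filter only through the others, which partly sets the counts of the lists. Exact permutation of 2 against 2 libraries cannot go below a two-sided p of 0.333. Members and lists were chosen with earlier results of these data known. All members are named; of other lists, those called, and otherwise up to 4 with the largest relative change were eligible, and sox10, foxd3 and ctr9 are given beside them. List names were matched by symbol, gene ID or RefSeq synonym, and no coordinates were used.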

Additional observations from a re-analysis of the deposited data

How the results depend on the processing

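With progesterone against morpholino DMSO, meis2a and meis2b were lower in all 15 alternatives. Their log2 fold changes ran from -5.97 to -1.71 and from -2.43 to -0.99. Meis3 was also lower in all 15 (-1.31 to -0.12), pbx4 in 14 and pbx2 in 13. Other filters, leaving out an uninjected library, fitting only the 2 groups compared and the replicate block cannot change these log2 fold changes. The signs there were fixed in advance, so these counts of alternatives are no support. The median member moved to -0.39 with median-ratio scaling in that comparison and to 0.027 with both treatments against uninjected cells. Leaving out 1 library gave -1.88 to -0.78 in the progesterone comparison, 0.20 to 0.57 for the morpholino and -1.48 to -0.32 for both; without experiment 2 of progesterone or of morpholino DMSO it is taken over 6 members, pbx3b included. With scaling together with leaving out 1 progesterone library, chosen after seeing the data, the median member came to -0.42 without experiment 1 and 0.076 without experiment 2 for both treatments, and to -0.46 without experiment 2 for progesterone.

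Over all genes, limma called 0 genes for progesterone, 2 for the morpholino and 2 for both. Leaving out 1 library gave 0 to 4266, 0 to 3 and 0 to 4552 calls, with 4266 and 4552 without experiment 1 of progesterone; without experiment 2 there were 24 calls for progesterone and 62 for both. With scaling as well, these became 2836 and 2622 without experiment 1 and 21 and 80 without experiment 2. Median-ratio scaling with all libraries gave 1, 2 and 12 calls. A pseudocount of 0.1 gave 0 for the morpholino and 0 for both, no filter 1 and 1, and a mean of at least 5 FPKM 1 and 28. Fitting only the 2 groups compared gave 1 call for progesterone and 0 for both.

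The experiment numbers are shared by the morpholino groups, but deviations of same-numbered libraries correlated at 0.0762 across genes, so they were not treated as pairs; with the experiment as a replicate block 3 genes were called with progesterone. With 2 libraries a group and fragment numbers not in the table, differences of members under 1 FPKM could not be judged. The cause of these moves was not tested.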
